A study of Danio rerio with 4 samples.

Results

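The miR-15 and miR-16 family was examined in small RNA libraries of sorted zebrafish cells. Its members were all miRNAs in the deposited tables whose name begins with miR-15 or miR-16 followed directly by a letter or a hyphen, which gave 9 of the 372 listed miRNAs. Of these, dre-miR-16b and dre-miR-15b-5p had the most reads in the earlier library of neural crest cells (186 and 167), and the prefix dre- (Danio rerio) is left out below. The full list is miR-15a-5p, miR-15a-3p, miR-15b-5p, miR-15b-3p, miR-15c, miR-16a, miR-16b, miR-16c-5p and miR-16c-3p. Embryos of the line Tg(sox10:eGFP,mRFP), in which the sox10 promoter drives both fluorescent proteins, were dissociated at 16 and 28 hpf (hours post-fertilization), and all 4 libraries came from this untreated line. GFP-positive cells were sorted as neural crest cells (NCC) and GFP-negative cells as non-NCC. Each population and stage is represented by 1 library, and the number of embryos behind each sort is not given in the sources used here. The sox10 promoter is also known to be active in the otic epithelium, so GFP marks a population rather than a single lineage. The tables hold miRNAs, so the NCC label could not be checked in them against mRNA markers. The study measured foxd3 and tbx5a in the sorted cells by RT-qPCR, which was not analysed here.

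miRNAs of this family bind mRNAs through a shared seed, the short stretch near the 5′ end of the mature strand that pairs with target sites. In mammals the family is known for restraining the cell cycle and survival, with cyclin D1, cyclin E and BCL2 among its targets, and the loss of a miR-15 and miR-16 locus is frequent in human chronic lymphocytic leukemia. In Xenopus, miR-15 and miR-16 limit Nodal signaling through the receptor Acvr2a. The hairpin precursor of a miRNA yields a 5p and a 3p strand, one of which is usually retained in the silencing complex. In this family the retained strand is usually the 5p strand, and the names miR-15c, miR-16a and miR-16b carry no arm. The genes of the family occur as neighboring hairpins. The GRCz12tu gene table places mir16b next to mir15a-1, mir16c next to mir15a-2, mir15c next to mir16a, and the miR-15b gene next to mir457a, with 0 other genes starting between the members of each pair. The mir15c and mir16a pair lies within the listed spans of smc4, which encodes a condensin subunit, and kpna4, which encodes an importin alpha. The mir16c and mir15a-2 pair lies within trim13, which encodes a ubiquitin ligase. miR-15a has 2 genes, so its reads cannot be assigned to either of its neighbors.

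The deposited values are normalized counts, that is, reads scaled by a size factor per library. Each value is a whole number of times the lowest nonzero one of its library, and the whole reads recovered in this way summed to 2340716 (NCC, 16 hpf), 140132389 (non-NCC, 16 hpf), 6502 (NCC, 28 hpf) and 1099312 (non-NCC, 28 hpf). Some rows, such as miR-23b and miR-23b-3p, have identical reads, so these sums may count a read more than once. The limit of a library for a miRNA with 0 reads was set at 3 reads, which is 0.0461% of the NCC library at 28 hpf but 2.14e-06% of the non-NCC library at 16 hpf. Because the authors normalized each stage separately, normalized counts were compared within a stage only. Lists of miRNAs known from other cell types were read alongside. At 16 hpf, their summed NCC to non-NCC ratios were 1.05 for 5 muscle miRNAs, 0.862 for 8 epithelial and 0.488 for 6 blood miRNAs. They were 0.370 for 6 neuronal and 0.218 for 3 endothelial miRNAs. In this order, 3, 0, 2, 1 and 1 of the miRNAs were at 0 in NCC. A single miRNA gave most NCC reads of each list. For the first lists it was miR-133a-3p (64 of 82 reads, ratio 5.66), miR-205-5p (1071 of 1124, 0.998) and miR-451 (43 of 49, 8.43). These lists also included miR-206-3p at a ratio of 0.368, miR-429a at 0.220 and miR-144-5p at 0.0226. miR-200c-3p stood at 1.86 from 2 NCC reads. In the neuronal list, miR-9-5p (427 of 456 reads) stood at 0.463, miR-124-3p at 0.192 and miR-219-5p at 0.0233. On the other side were miR-138-5p at 1.64 from 14 NCC reads and miR-128-3p at 1.19 from 3, and miR-9-3p was at 0. In the endothelial list, miR-126a-3p (10 of 12 reads) stood at 0.246 and miR-126a-5p at 0.554. At 28 hpf, the NCC library held 69 reads of the epithelial list (ratio 5.24) and 33 of the neuronal list (ratio 0.892). It held 2 of the muscle list (ratio 0.332) and 0 of the blood and endothelial lists. Of the 69 epithelial reads, 68 were miR-205-5p, and 6 of the 8 epithelial miRNAs were at 0 in NCC. In the neuronal and muscle lists, 3 of 6 and 4 of 5 miRNAs were at 0. The 33 neuronal reads were 21 of miR-9-5p (ratio 0.613), 9 of miR-219-5p (6.50) and 3 of miR-128-3p (55.7, against 7 non-NCC reads). The part of these cell types in the ratios below was not tested. All intervals given are exact 95% Clopper-Pearson or conditional intervals from the reads. They compare single libraries and cover counting error only, as do the exact tests and their p-values below. The reason is that sorts were not replicated and the reads, which carry no molecular identifiers, can be copies of one another.

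Summed over its 9 members, 3p strands included, the family took up nearly the same part of both libraries at 16 hpf. At 28 hpf, too few NCC reads were counted to compare the parts closely. At 16 hpf it had 595 reads in NCC, 0.0254% of the library (from 0.0234 to 0.0275), and 36750 reads in non-NCC, 0.0262%. The ratio of the summed normalized counts, 4593 in NCC over 4760 in non-NCC, was 0.965 (from 0.888 to 1.05). This sum adds both strands of hairpins, so it is not a sum over 1 shared seed. Its 3 3p strands alone had 92 reads in NCC and 2607 in non-NCC, a ratio of 2.10 (from 1.69 to 2.59). In the 28-hpf libraries these strands had 0 and 221 reads. The miR-16 and miR-15 rows without 3p strands are summed further below. At 28 hpf the family had 5 reads in NCC, 0.0769% of the library (from 0.0250 to 0.179), and 687 reads in non-NCC, 0.0625%, and the ratio was 0.947 (from 0.306 to 2.22). With the size factors of the authors, the interval of the summed ratio included an equal level at both stages, but at 28 hpf it also allowed levels several-fold apart. With edgeR's TMM factors, the summed ratio at 16 hpf was 0.825 (from 0.760 to 0.895), which leaves out an equal level. At 28 hpf, the summed ratio was between 1.23 and 1.51 with the 3 other scalings, and its direction thus depended on the scaling. The shares depended on the miR-430 family, the abundant miRNAs of maternal mRNA clearance, whose share at 16 hpf was 92.0% in NCC and 91.7% in the other library, against 72.8% and 66.7% at 28 hpf. Of the reads outside miR-430, the members made up 0.317% (NCC) and 0.318% (non-NCC) at the earlier stage, and 0.283% and 0.188% at the later one. In non-NCC the members thus made up more of all reads at 28 hpf than at 16 hpf, but less of the reads outside miR-430.

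**Figure D1:**
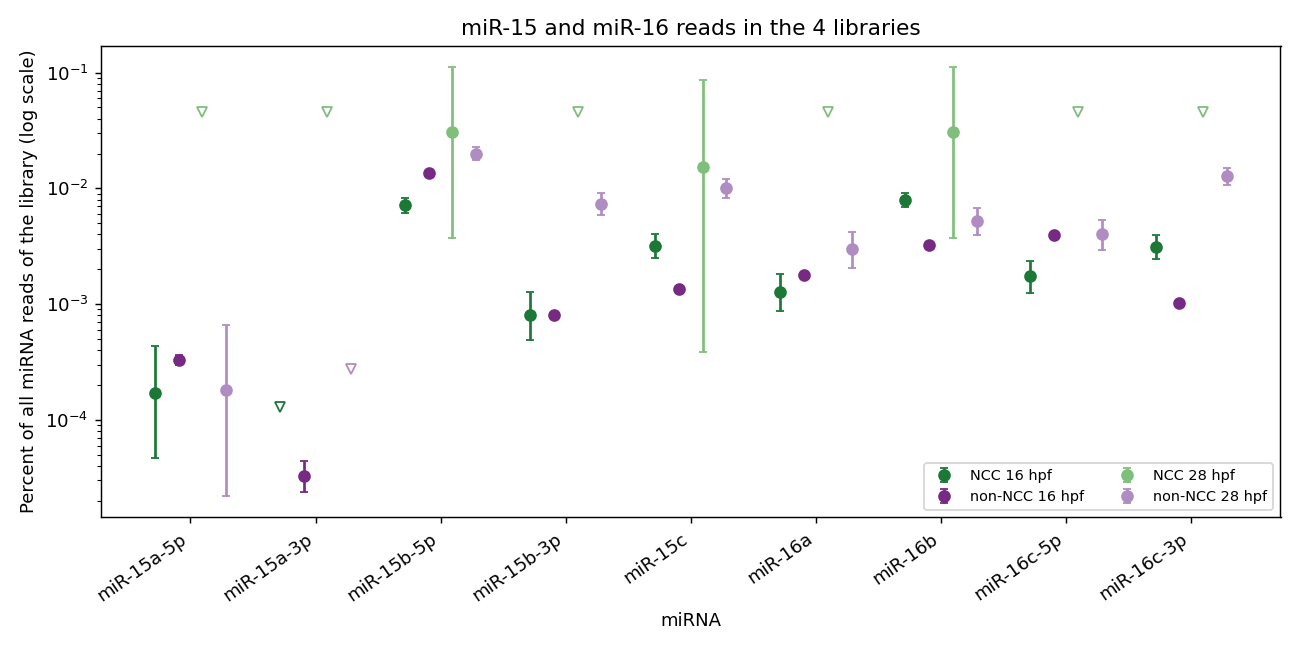
Reads of each of the 9 members as percent of all miRNA reads (vertical axis, log scale) in the 4 libraries, with points for the share, bars for its exact 95% interval, and open triangles at the 3-read limit for members with 0 reads. The widest bars are all at 28 hpf. They are those of miR-15b-5p, miR-16b and miR-15c in NCC (2, 2 and 1 reads) and of miR-15a-5p in non-NCC (2 reads).

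The members divided these reads differently in the 2 populations at 16 hpf. miR-15b-5p was the most abundant member in non-NCC, with 19091 reads, 51.9% of the reads of the family (from 51.4 to 52.5). In NCC it had 167 reads, 28.1% (from 24.5 to 31.9). miR-16b had 186 reads in NCC, 31.3% of the family (from 27.6 to 35.2), and 4588 reads in non-NCC, 12.5% (from 12.1 to 12.8). In NCC, miR-16b and miR-15b-5p led the family with overlapping intervals around 0.00795% and 0.00713% of the library, whereas in non-NCC miR-15b-5p, at 0.0136%, stood above miR-16b, at 0.00327%, and above miR-16c-5p, at 0.00399%. In non-NCC at 16 hpf, all 9 members differed from their neighbors in the order of levels beyond their intervals. After miR-15b-5p, miR-16c-5p and miR-16b, the order there ran from miR-16a (2513 reads) over miR-15c (1902), miR-16c-3p (1431), miR-15b-3p (1130) and miR-15a-5p (461) to miR-15a-3p (46). In NCC, miR-15c (75 reads) and miR-16c-3p (73) overlapped. So did miR-16c-5p (41) with miR-16a (30), and miR-16a with miR-15b-3p (19), whereas miR-15b-3p lay above miR-15a-5p (4). Read shares of different miRNAs also carry ligation and amplification preferences, so the order of shares is one of reads and not of molecules.

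**Figure D2:**
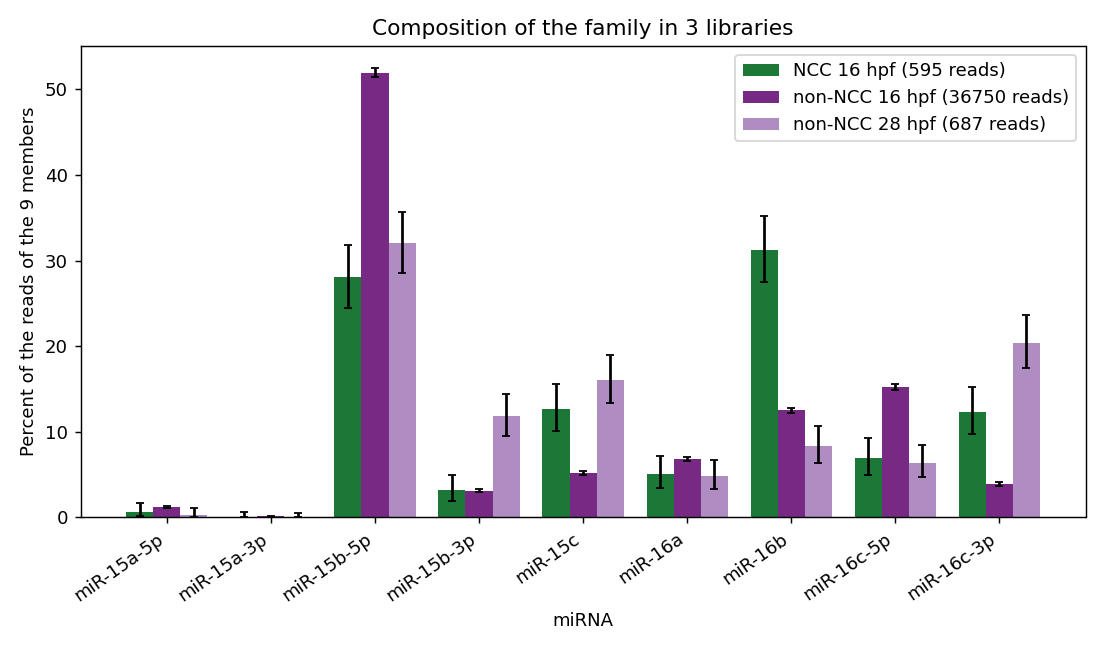
Percent of the reads of the 9 members (vertical axis) taken by each member in the NCC library at 16 hpf (595 reads) and the non-NCC libraries at 16 hpf (36750 reads) and 28 hpf (687 reads), with exact 95% intervals. miR-16b holds 31.3% in NCC against 12.5% in non-NCC at 16 hpf, and miR-15b-5p 28.1% against 51.9%. The NCC library at 28 hpf, with 5 reads, is left out.

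At 16 hpf, 8 members had reads in both libraries. A ratio of more than 2-fold toward NCC was found for 3 of them and toward non-NCC for 1, with 4 inside 2-fold either way. Over all 225 miRNAs with reads in both libraries, 26.7% passed 2-fold toward NCC and 25.3% toward non-NCC. A two-sided exact binomial test on the reads, adjusted by Benjamini-Hochberg over the 340 miRNAs with reads at this stage, called 3 of the 9 members higher in NCC, where it called 14.7% of all miRNAs, and 2 lower in NCC, where it called 17.9% of all.

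The members higher in the NCC library at 16 hpf were miR-16b, miR-15c and miR-16c-3p. For miR-16b, 1436 normalized counts stood against 594 in non-NCC. Its log2 ratio was 1.27 (interval 1.05 to 1.48; adjusted p = 2.17e-24 in the exact binomial test). miR-15c had 579 normalized counts from 75 reads in NCC and 246 from 1902 reads in non-NCC. It was 2.35-fold higher in NCC (interval 1.84 to 2.96; adjusted p = 7.64e-10 in the exact test). The strand opposite to a miR-16, miR-16c-3p, had 564 normalized counts from 73 reads in NCC and 185 from 1431 reads in non-NCC. It was 3.04-fold higher (interval 2.37 to 3.85; adjusted p = 1.17e-14 in the exact test), the highest ratio among the members, and stood 35th of the 225 miRNAs with reads in both libraries when ordered by ratio. miR-15c stood 48th and miR-16b 46th in this order, so that many miRNAs of other families had higher ratios.

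Both members lower in NCC are named as 5p strands. The higher miR-16b and miR-15c carry no arm in their names, so this is not a contrast between arms. miR-16c-5p, from the same hairpin as miR-16c-3p, had 317 normalized counts from 41 reads in NCC and 724 from 5588 reads in non-NCC, and was 2.29-fold lower in NCC (log2 ratio -1.19, interval -1.67 to -0.75; adjusted p = 1.07e-08 in the exact test). For miR-15b-5p, the 1289 normalized counts of NCC stood against 2473. At 1.92-fold lower in NCC (log2 ratio -0.94, from -1.17 to -0.72), it stayed inside the 2-fold limit but was called by the exact binomial test (adjusted p = 9.94e-20). With edgeR's TMM factors it passed that limit, at a log2 ratio of -1.17.

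For the remaining members a difference between the 16-hpf libraries was not detectable at this depth. miR-16a had 232 normalized counts from 30 reads in NCC and 326 from 2513 reads in non-NCC (log2 ratio -0.49, interval -1.06 to 0.03; adjusted p = 0.164 in the exact test). With edgeR's TMM factors, its log2 ratio of -0.72 was called (exact binomial test, adjusted p = 0.0151). miR-15b-3p had almost equal values, 146.7 normalized counts from 19 reads in NCC and 146.4 from 1130 reads in non-NCC, with an interval of the log2 ratio from -0.73 to 0.65. miR-15a-5p had 4 reads in NCC against 461 in the other library, and its log2 ratio was -0.95 (interval -2.83 to 0.41). miR-15a-3p had 46 non-NCC reads and, like 33.6% of the miRNAs with non-NCC reads, 0 NCC reads, where an equal level would have given 0.759.

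**Figure D3:**
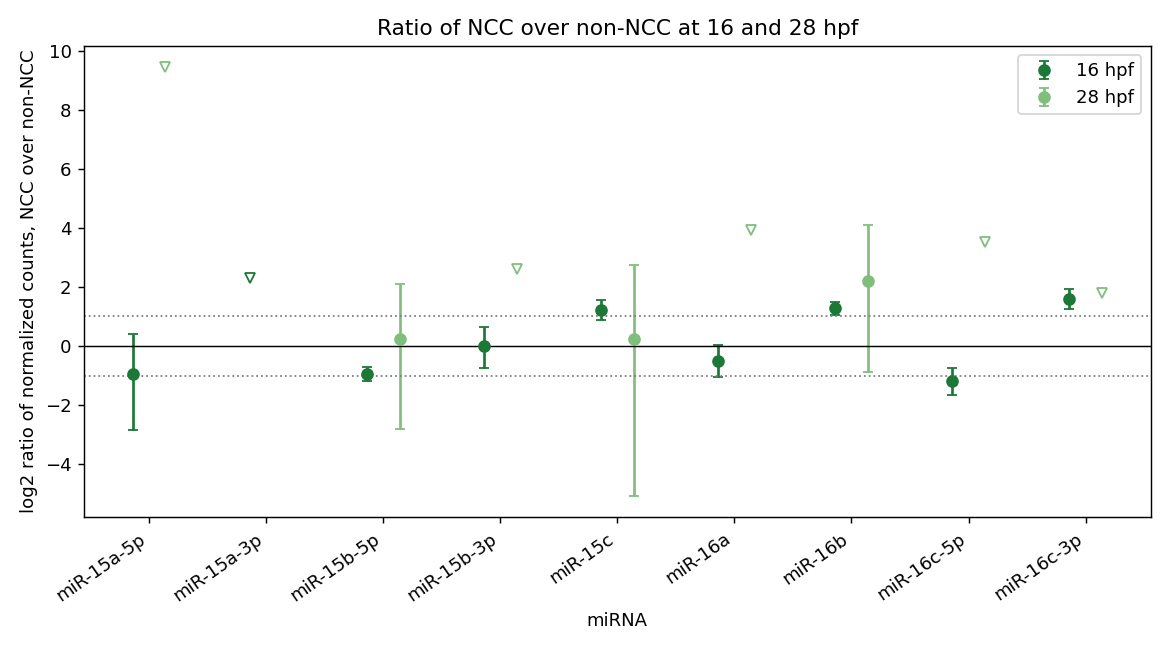
log2 ratio of normalized counts, NCC over non-NCC (vertical axis), of each member at 16 and 28 hpf, with exact 95% intervals, dotted lines at 2-fold, and open triangles at the upper end of the exact interval of the ratio, not at the 3-read limit, for members with 0 NCC reads. At 16 hpf, miR-16b, miR-15c and miR-16c-3p lie above the upper dotted line and miR-16c-5p below the lower one, and at 28 hpf every interval includes 0.

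**Figure D4:**
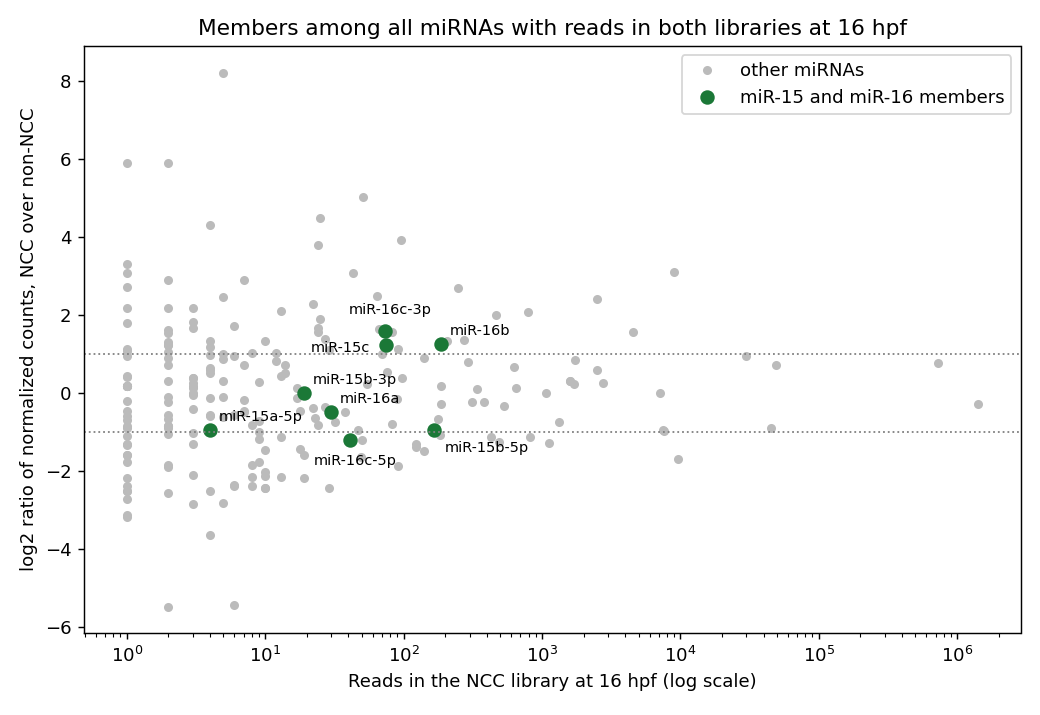
log2 ratio of normalized counts at 16 hpf (vertical axis) against the reads in the NCC library (horizontal axis, log scale) for the 225 miRNAs with reads in both libraries, with the members in green and dotted lines at 2-fold. The 8 members lie between -1.19 and 1.60, inside the range of the other miRNAs with similar read numbers.

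The mature 5p strands of miR-16a, miR-16b and miR-16c are closely similar, and how reads that fit more than one of them were counted is not given in the sources used here. The 3 miR-16 rows other than the 3p strand were therefore also summed, as were the 3 such miR-15 rows, a choice made after their values were seen. At 16 hpf, the miR-16 sum had 257 reads in NCC against 12689 in non-NCC, and its ratio was 1.21 (log2 ratio 0.27, from 0.09 to 0.45). The opposite directions of miR-16b and miR-16c-5p thus left a small difference in their sum, which shrank to a log2 ratio of 0.05 with edgeR's TMM factors. The miR-15 sum had 246 reads in NCC and 21454 in non-NCC and was 1.46-fold lower in NCC (log2 ratio -0.55, from -0.74 to -0.37). This sum is dominated by miR-15b-5p, and miR-15c went the other way within it.

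Ratios between members within a library do not depend on how the libraries are scaled to each other. At 16 hpf, 1.11 reads of miR-16b were counted per read of miR-15b-5p in NCC and 0.240 in non-NCC, so that the balance was shifted 4.63-fold toward miR-16b in NCC (from 3.73 to 5.76). In the non-NCC library at 28 hpf the same quotient was 0.259, from 57 and 220 reads, which differed from the non-NCC library at 16 hpf by 1.08-fold (from 0.790 to 1.45). The 2 non-NCC libraries thus had like balances of miR-16b to miR-15b-5p. In NCC at 28 hpf, 2 reads of each were counted, and the shift against non-NCC of 3.86-fold had an interval from 0.273 to 54.0.

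Of the neighboring hairpins within the family, mir15c and mir16a could be compared as a pair, and their balance was not constant. For miR-15c and miR-16a, the pair within smc4, 2.50 reads of miR-15c were counted per read of miR-16a in NCC against 0.757 in non-NCC at 16 hpf, a 3.30-fold shift (from 2.13 to 5.25). In non-NCC at 28 hpf, 110 reads of miR-15c stood against 33 of miR-16a, a quotient of 3.33 and a 4.40-fold shift from non-NCC at 16 hpf (from 2.94 to 6.74). The quotient of the NCC library at 16 hpf was thus nearer to that of the later non-NCC library than to that of non-NCC at its own stage. For miR-16b and miR-15a-5p, the quotients at 16 hpf were 46.5 in NCC and 9.95 in non-NCC (shift 4.67-fold, from 1.78 to 17.4), resting on the 4 NCC reads of miR-15a-5p. Between the non-NCC libraries, their shift of 2.86-fold had an interval from 0.753 to 24.3. miR-16c-5p and miR-15a-5p showed no detectable shift at 16 hpf (0.846-fold, from 0.304 to 3.26). miR-15a-5p has 2 genes, so its quotients are not balances within a pair. All these quotients may also depend on how reads were divided among the miR-16 rows.

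miR-457a, which shares its seed with the family as background knowledge has it and lies next to the miR-15b gene, was the best covered of the 3 miR-457 rows, the relatives of the family that were in the tables. It had 5 reads in NCC (38.6 normalized counts) and 2083 in non-NCC (269.8 normalized counts) at 16 hpf and was 6.99-fold lower in NCC (log2 ratio -2.81, interval -4.43 to -1.58; adjusted p = 4.88e-09 in the exact test). Its neighbor miR-15b-5p was lower by 0.94 on the same log2 scale, and per read of miR-457a the NCC library held 3.64 times as many reads of miR-15b-5p as the non-NCC library (from 1.53 to 11.4). At 28 hpf, miR-457a had 3 reads in non-NCC beside 220 of miR-15b-5p, and 0 in NCC. The shift toward miR-15b-5p between the 2 non-NCC libraries was 8.0-fold (from 2.70 to 39.1). miR-457b-5p and miR-457b-3p had 0 NCC reads at both stages and at most 75 non-NCC reads.

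The strands of the miR-16c hairpin changed places between libraries. In non-NCC at 16 hpf, the 3p strand gave 20.4% of the 7019 reads of both strands (from 19.5 to 21.3). In NCC at 16 hpf it gave 64.0% of 114 reads (from 54.5 to 72.8), and in non-NCC at 28 hpf 76.1% of 184 reads (from 69.3 to 82.1). The 5p strand was thus the major one only in the non-NCC library at 16 hpf among these 3 libraries, and the NCC library at 28 hpf had 0 reads of either strand. Per 5p read, the 3p strand was 6.95-fold more frequent in NCC than in non-NCC at 16 hpf (from 4.66 to 10.5) and 12.4-fold more frequent in non-NCC at 28 hpf than at 16 hpf (from 8.74 to 17.9). The comparison between stages and those that follow in this paragraph were added after the values were seen. Set against the summed miR-16a, miR-16b and miR-16c-5p reads, the shifts were 2.52-fold (from 1.90 to 3.30) and 9.26-fold (from 7.21 to 11.9). That sum is free of how reads were divided among these rows only if each read was counted once, which is not known for them. Outside the family, miR-23b and miR-23b-3p had identical reads in every library, with 336 each in non-NCC at 16 hpf. A read may thus be counted in more than 1 row. Among the hairpins with both strands listed and at least 50 reads in both libraries, miR-16c had the largest gain in 3p share, 43.6 percentage points among 39 hairpins between NCC and non-NCC at 16 hpf and 55.7 points among 53 hairpins between the non-NCC libraries. The median hairpin changed by -0.0029 and 0.035 points, respectively. Large changes were not limited to miR-16c. The 3p share of miR-222a was 31.9 points higher in NCC than in non-NCC at 16 hpf and rose by 37.7 points between the non-NCC libraries. Between the latter, that of miR-2188 rose by 46.3 points, from 206 reads at 16 hpf and 50 at 28 hpf. The largest losses were those of miR-130c (-79.0 points) in the first comparison and miR-200a (-36.1 points) in the second.

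The strands of miR-15b shifted in the same direction from a lower start. The 3p strand gave 5.59% of 20221 reads in non-NCC at 16 hpf (from 5.28 to 5.91), 10.2% of 186 reads in NCC at 16 hpf (from 6.26 to 15.5) and 26.9% of 301 reads in non-NCC at 28 hpf (from 22.0 to 32.3). Its shift between populations at 16 hpf was 1.92-fold (from 1.12 to 3.11), and against the summed miR-15 rows 1.47-fold (from 0.865 to 2.35), an interval that includes 1. The shift between the non-NCC libraries of the stages was 6.22-fold (from 4.73 to 8.12), and 4.63-fold against the summed rows (from 3.56 to 5.97). miR-15b-5p was the major strand in these 3 libraries. miR-15a-3p had 46 reads beside 461 of miR-15a-5p in non-NCC at 16 hpf, 9.07% (from 6.72 to 11.9), and the other libraries held at most 4 reads of both strands.

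**Figure D5:**
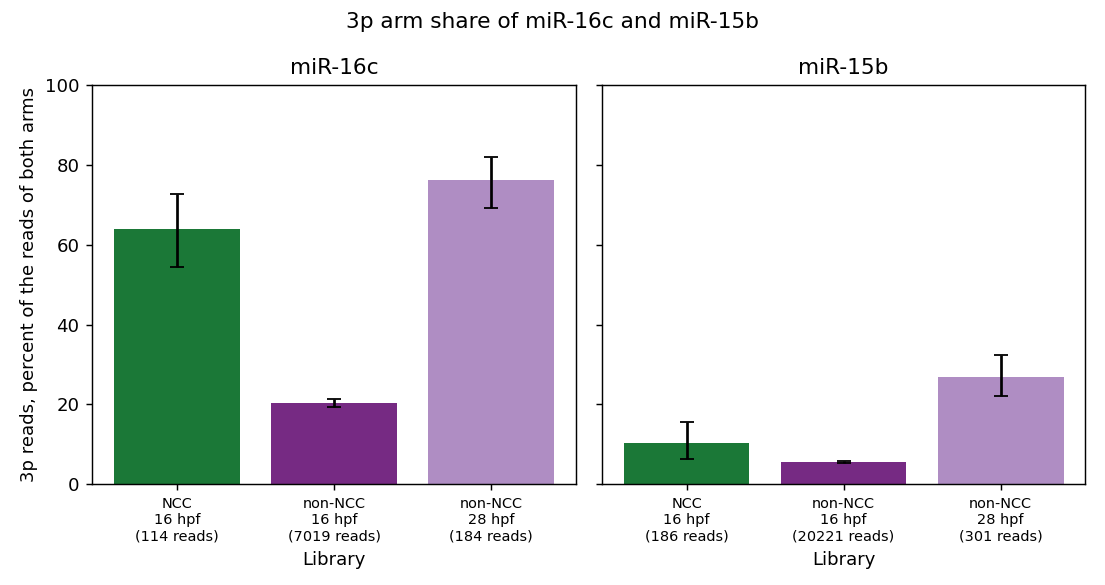
Reads of the 3p strand as percent of the reads of both strands (vertical axis) for miR-16c (left) and miR-15b (right) in the 3 libraries with at least 50 such reads, with exact 95% intervals. For miR-16c the share at 16 hpf is 64.0% in NCC against 20.4% in non-NCC, and 76.1% in the later non-NCC library. For miR-15b it is 10.2%, 5.59% and 26.9%, respectively.

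At 28 hpf, 3 of the 9 members had reads in the NCC library. miR-15b-5p had 2 reads (22.8 normalized counts) against 220 in non-NCC (19.3 normalized counts), a log2 ratio of 0.24 (from -2.81 to 2.11). miR-15c had 1 read (11.4 normalized counts) against 110 (9.65 normalized counts), with the same log2 ratio and an interval from -5.08 to 2.75. Only miR-16b passed 2-fold, at 4.56-fold from 2 reads against 57, and its interval reached from 0.540 to 17.3. Of the 49 miRNAs with reads in both libraries, 24.5% passed 2-fold toward NCC. At this stage 1 NCC read weighs as much as 130 non-NCC reads. With 57 non-NCC reads, any NCC read therefore puts miR-16b over 2-fold. Its pass was fixed by the need for reads in both libraries. The 24.5% has the same limit for miRNAs with few non-NCC reads. The exact binomial test called 0 of the 8 members with reads at this stage at an adjusted p under 0.05, and 0 had an unadjusted p under 0.05, where it called 7.95% of the 239 miRNAs tested, 2.93% as higher and 5.02% as lower in NCC. With each of the 3 other scalings, 0 members were called and 1 had an unadjusted p under 0.05, where 15 or 16 of the 239 miRNAs were called.

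Another 5 members had non-NCC reads and 0 NCC reads at 28 hpf, as did 79.3% of the 237 miRNAs with non-NCC reads. miR-16c-3p was the best covered of them, with 140 non-NCC reads, and an equal level would have given 1.07 NCC reads. For miR-15b-3p (81 non-NCC reads), miR-16c-5p (44), miR-16a (33) and miR-15a-5p (2), the number was between 0.0153 and 0.618. A lower level of these members in NCC was therefore not detectable at 28 hpf.

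The change of the NCC to non-NCC ratio between stages was examined by an exact conditional test, two-sided, on the 4 read counts, with p-values adjusted over 189 miRNAs, of which 14.8% were called. None of the 8 members that could be tested was called, and 0 had an unadjusted p under 0.05. The same member counts were obtained with the 3 other scalings, where 25 or 26 of the 189 miRNAs were called. The log2 ratio of miR-16b was 0.92 higher at 28 hpf (from -2.17 to 2.86) and that of miR-15b-5p 1.18 higher (from -1.89 to 3.07), whereas that of miR-15c changed by -0.99 (from -6.33 to 1.56). The lowest upper end was that of miR-16c-3p, at 0.23 (exact conditional test, unadjusted p = 0.0739 and adjusted p = 0.388). Its interval had no lower end, because miR-16c-3p had 0 NCC reads at 28 hpf.

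Between the non-NCC libraries, each deeper than the NCC library of its own stage, the members moved apart with stage. As a share of the reads outside miR-430, miR-15b-5p went from 0.165% at 16 hpf (from 0.163 to 0.167) to 0.0600% at 28 hpf (from 0.0524 to 0.0685). miR-16b went from 0.0396% to 0.0156% (from 0.0118 to 0.0202 at 28 hpf), miR-16c-5p from 0.0483% to 0.0120% (from 0.00873 to 0.0161) and miR-16a from 0.0217% to 0.00901% (from 0.00620 to 0.0126). The 4 shares were lower at 28 hpf beyond their intervals. The other direction was taken by miR-16c-3p, from 0.0124% to 0.0382% (from 0.0321 to 0.0451), miR-15b-3p, from 0.00976% to 0.0221% (from 0.0176 to 0.0275), and miR-15c, from 0.0164% to 0.0300% (from 0.0247 to 0.0362). As shares of all miRNA reads, of which miR-430 took less at 28 hpf, miR-16c-5p was nearly level at 0.00399% and 0.00400%, miR-15b-5p went from 0.0136% to 0.0200%, miR-16b from 0.00327% to 0.00519% and miR-16a from 0.00179% to 0.00300%. The lower shares of these 4 members at 28 hpf thus held only with miR-430 left out of the denominator. miR-16c-3p, miR-15b-3p and miR-15c were higher at 28 hpf with both denominators, at 0.00102% and 0.0127% of all miRNA reads for miR-16c-3p. miR-15a-5p had 2 reads at 28 hpf, 0.000546% of the reads outside miR-430, against 0.00398% at 16 hpf.

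miRNAs outside the family with a like course over the 4 libraries were ordered by the Euclidean distance of their log2 shares, each centered on its mean, among 46 miRNAs with reads in all libraries. The closest to miR-15b-5p were miR-10a-5p (distance 0.50), miR-10b-5p (0.704) and miR-221-3p (0.721), against a median distance of 2.40. The closest to miR-16b were miR-462 (1.13), miR-735-5p (1.58) and miR-100-5p (1.63), against a median of 2.82. The distance between miR-16b and miR-15b-5p themselves was 2.08. These distances describe 4 libraries, 2 reads of each in NCC at 28 hpf included. In that library, miR-462 had 2 reads, miR-735-5p 4, miR-100-5p 12 and miR-221-3p 1, against 78 of miR-10a-5p and 524 of miR-10b-5p. A read there was needed to be ordered at all. miR-16b, with 0.450 NCC reads expected at an equal level, and others like it thus entered only by being high there. The order is a description and gives no support for a shared course.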

How the data were processed

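For the small RNA reads, the authors used FASTQC as a quality check, Bowtie for alignment (GRCz11 per the submitters' processing notes) and HTSeq for counting. They deposited normalized counts, a signal that is never negative, as 2 tables of 372 miRNAs, each with the 2 libraries of a stage. DESeq2 is the tool they name for differential expression. Versions, settings and the treatment of reads that fit several precursors are not given in the sources used here. Each value was divided by the smallest nonzero value of its library, which gave whole reads for 100% of values (largest distance from a whole number 4.02e-07).

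Ratios, exact intervals at 95%, two-sided exact binomial tests and exact conditional tests were computed from these reads over the whole tables, with Benjamini-Hochberg adjustment, and tested on simulated data. The simulated reads were drawn independently (Poisson counts), with no differences between sorts and no copied reads. They checked the computation only and cannot show whether the calls would hold in repeated sorts. Members, relatives and marker lists were chosen with earlier results of these data known. The named miRNAs are all members, the miR-457 rows and the 3 closest miRNAs by course. Single miRNAs of the marker lists and of the strand comparison were named in addition after their values were seen. Mature sequences were not used here, so relatives were found by name only. The alternatives were scaling to library totals with and without miR-430, edgeR's TMM factors, 0.5 added reads, the plotting pseudocount of the study, a minimum of 10 reads, 4-fold, and division by precursor genes. The software was scipy 1.17.1, edgeR 4.0.16 under R 4.3.3, and Python 3.11.15.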

Additional observations from a re-analysis of the deposited data

How the results depend on the processing

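Against the size factors of the authors, edgeR's TMM factors moved all log2 ratios by -0.23 at 16 hpf and 0.41 at 28 hpf, library totals by 0.01 and 0.38, and totals without miR-430 by 0.05 and 0.67. The 5 members called at 16 hpf kept their direction and an adjusted p under 0.05 in the exact binomial test under these scalings, but miR-15b-5p passed 2-fold with TMM factors (log2 ratio -1.17). Over all 340 miRNAs, that test called 111 with library totals, 110 with totals without miR-430 and 114 with TMM factors. With TMM factors miR-16a was called in addition (log2 ratio -0.72), the log2 ratio of miR-15b-3p, which was not called, turned from 0.00 to -0.22, that of the sum of all members at 16 hpf went from -0.05 to -0.28 (from -0.40 to -0.16, an interval without 0), and the members over 2-fold in non-NCC at 16 hpf numbered 3 in place of 1. That number was 2 with the plotting pseudocount. At 4-fold, 0 members remained on either side at 16 hpf. At 28 hpf, the 1 member over 2-fold in NCC became 2 with 0.5 reads added and 0 with at least 10 reads or an adjusted p under 0.05 required, and the 0 members over 2-fold in non-NCC became 1 with 0.5 reads added and 5 with the plotting pseudocount, which decides the ratio of members with 0 NCC reads. The share of all miRNAs over 2-fold or 4-fold was not computed for these alternatives. The member counts over these limits thus have no background here and are not results about the members. The log2 ratios of the miR-16 and miR-15 sums at 16 hpf went to 0.05 and -0.78 with TMM factors. Division by precursor genes applied to miR-15a-3p alone and changed no call. The sum over members with the same seed sequence was not run. No paired analysis was possible because each population and stage has 1 library. Depth limits the 28-hpf comparisons, with 5 NCC reads for the whole family.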
